A study of Mus musculus with 6 samples.

Results

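Genes for endoglin, the VEGF receptors, the angiopoietin receptor and their ligands are described here in mouse embryonic fibroblasts, connective-tissue cells grown out of embryos. The 10 genes Eng, Kdr, Flt1, Flt4, Tek, Angpt1, Angpt2, Vegfb, Vegfc and Vegfd were taken by name from deposited tables of 53323 loci. They were chosen from this same genotype contrast, because Eng was higher and Kdr and Tek lower in the knockout in cells that lacked endothelial markers, so their differences are a description and support nothing further. RNA was sequenced from 3 Fbxw7 knockout (KO) libraries and 3 wild-type (WT) libraries, all from fibroblasts grown in DMEM with 15% FBS and 1% NEAA. Fbxw7 encodes the subunit of an SCF ubiquitin ligase that recognises its substrates. The allele, the exons removed, the strain, the embryos' age and whether libraries came from separate cultures are not stated in the labels, so the spread between libraries may be technical.

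In the body, endothelial cells carry most of these receptors. The VEGF receptors are tyrosine kinases of the cell surface: Kdr (VEGFR2) drives vessel growth, Flt1 (VEGFR1) binds VEGF tightly and can act as a decoy, and Flt4 (VEGFR3) serves lymphatic vessels. Tek encodes TIE2, which angiopoietin 1 activates and angiopoietin 2 can block, while endoglin is a coreceptor that helps BMP and TGF-beta ligands signal. Fibroblasts and the cells around vessels are known sources of several of the ligands.

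Depth and labels were checked before these genes were read. Estimated fragments as deposited, after the authors' scaling, summed to 55720127 to 60402237 per KO library and 62551363 to 64198435 per WT library. Before that scaling the totals for replicates 1, 2 and 3 were 57728129, 60332881 and 70625753 in KO. In WT they were 66070347, 51152378 and 57960347, so the unscaled depths overlapped between genotypes. The targeted gene, Fbxw7, measured 27.6, 27.4 and 24.1 CPM (counts per library total, rescaled by TMM) in KO and 29.5, 28.4 and 30.1 CPM in WT, a log2 fold change of -0.16 ± 0.10 (SE) with an edgeR adjusted p of 0.332. A gene total does not check the genotype where the removed exons are not known. The sex-linked transcripts Xist and Ddx3y differed between genotypes without overlap, and their levels are given with Vegfd below. Replicates 1 and 2 of a genotype lay closer together than either did to replicate 3. Between KO replicates 1 and 2 the median squared difference of a gene was 5.845 times that of sampling noise. It was 26.5 and 34.2 times in the pairs with KO replicate 3. Between WT replicates 1 and 2 it was 6.48 times, against 22.25 and 24.7 times in the pairs with WT replicate 3. Results that rest on replicate 3 are therefore given with and without it, for the 10 genes and for the pathway lists around them.

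The cells had the transcripts of fibroblasts and almost none of the defining transcripts of endothelium. Summed over 10 fibroblast markers, levels were 40294, 40158 and 33302 CPM in KO and 36600, 42342 and 31517 CPM in WT. Of 19 endothelial markers, 18 had a locus of their own, and 15 of those stayed under 1 CPM in every library. Cldn5 and Sox17, a tight-junction protein and an endothelial transcription factor, and Tie1, a partner of TIE2, were listed at 0 in all 6 libraries. Pecam1, a junction protein of endothelium, measured 0.0515, 0.0336 and 0.0683 CPM in KO and 0.151, 0.166 and 0 CPM in WT. Cdh5, the endothelial cadherin, measured 0.0172, 0 and 0.0341 CPM in KO and 0.0336, 0 and 0.0327 CPM in WT. The summed endothelial level was 12.1, 12.8 and 19.2 CPM in KO and 13.6, 13.7 and 15.5 CPM in WT, and came mostly from Fli1, at 4.49 to 7.67 CPM, and Ecscr, at 3.36 to 12.5 CPM. These sums overlapped between genotypes. Of 7 tested members, 0 passed an adjusted p of 0.05 in edgeR, 0 had an unadjusted p under 0.05 there, and 0 passed in DESeq2's Wald test. Tal1, a transcription factor of early blood and endothelium that fell below the count filter, did not overlap between genotypes, at 0.0172, 0.0168 and 0.0341 CPM in KO and 0.151, 0.166 and 0.245 CPM in WT, or 1, 1 and 2 fragments in KO and 10, 8 and 14 in WT. It was named after its values were seen. Lymphatic endothelial markers summed to 0.909, 1.21 and 0.41 CPM in KO and 1.68, 1.91 and 1.8 CPM in WT, nearly all of it Prox1, the regulator of lymphatic identity. Prox1 did not overlap between genotypes, with a log2 fold change of -1.10 ± 0.37 (SE) and an adjusted p of 0.0855 in edgeR and 0.032 in DESeq2's Wald test. Its part in the lower level of the lymphatic receptor gene Flt4 was not tested. In bulk RNA, fewer cells of a type and less RNA per cell cannot be told apart, which holds for every level below.

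**Figure D1:**
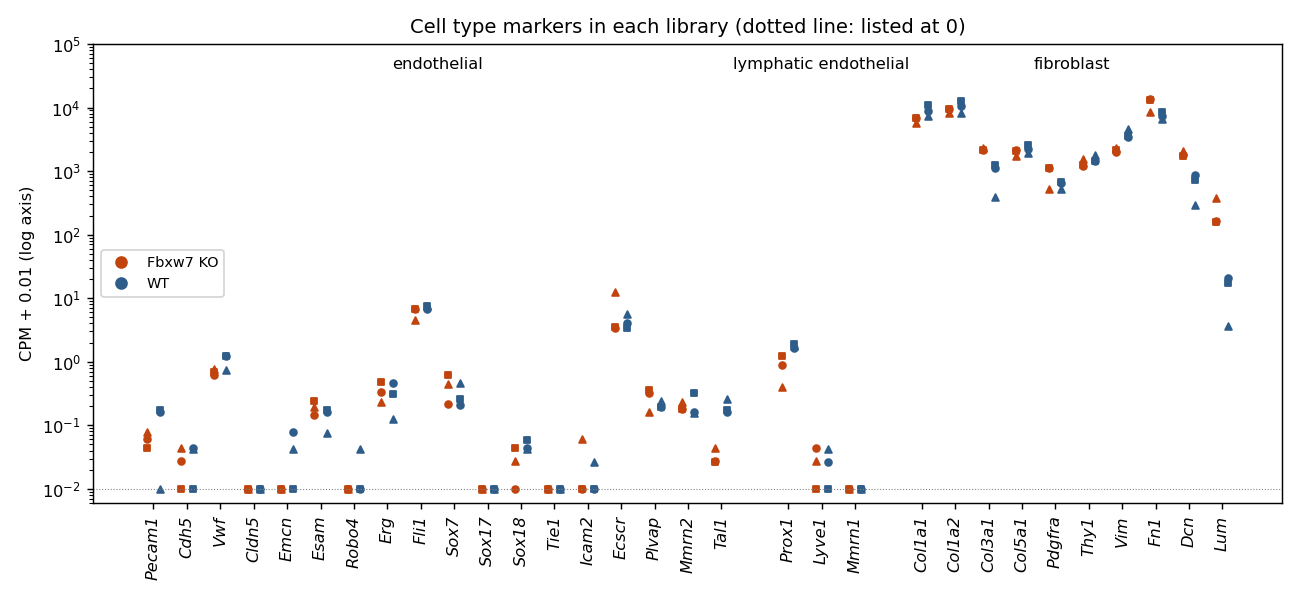
Levels of endothelial, lymphatic endothelial and fibroblast markers in each library, as CPM with a small constant added on a log axis. Fbxw7 KO libraries stand left of WT, circles, squares and triangles are replicates 1, 2 and 3, and genes on the dotted line were listed at 0. Most endothelial markers lie under 1 CPM in both genotypes, while fibroblast collagens lie far above it.

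All 10 genes passed the filter on low counts, and each had a locus of its own name. In edgeR, 6 of the 10 passed an adjusted p of 0.05, against 16.1% of all 16787 genes tested. Of these, 1 was higher in KO, where 8.03% of all genes were called higher, and 5 were lower, where 8.08% of all genes were called lower. KO and WT libraries did not overlap for the same 6 genes, against 37.7% of all genes tested. The median log2 fold change over the 10 genes was -0.60, beside 0.01 over all genes tested. Because the genes were taken from this contrast, nothing is read from these shares.

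**Figure D2:**
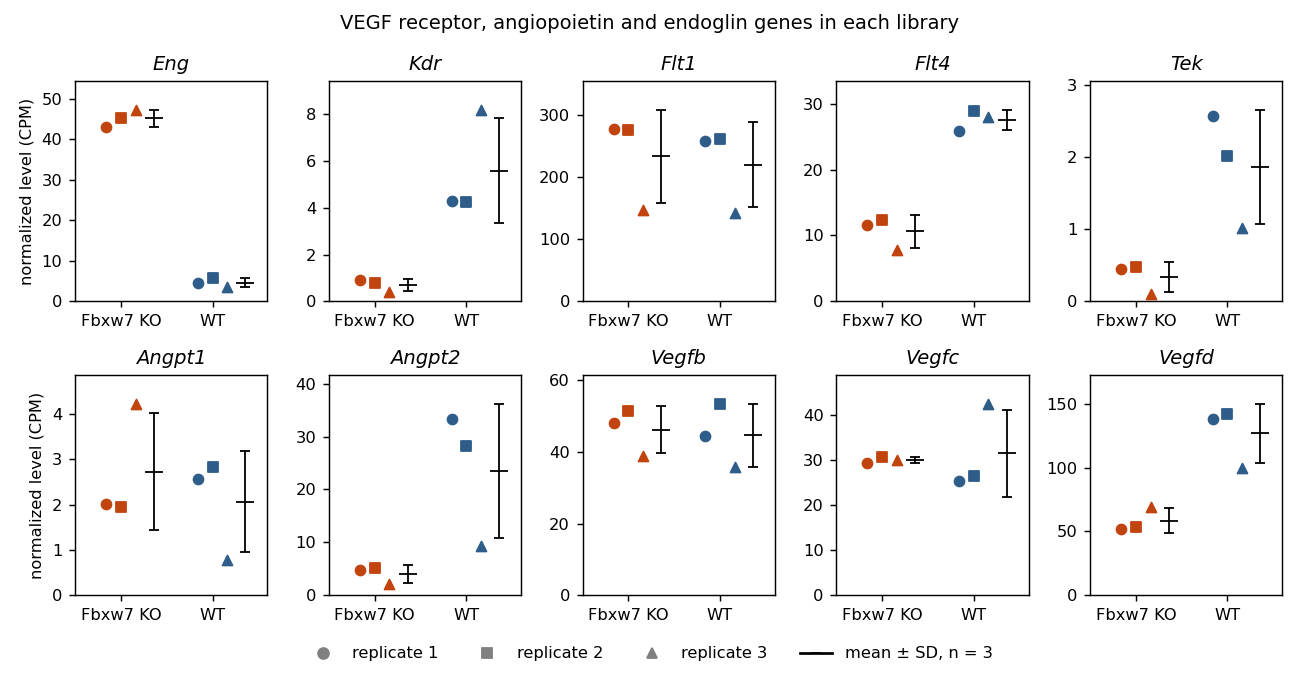
Level in CPM (linear axes from 0) of each gene in every library, Fbxw7 KO left of WT, with symbols for replicates 1 to 3 and bars for the mean ± SD (n = 3). Eng stands higher in all KO libraries, Kdr, Flt4, Tek, Angpt2 and Vegfd stand lower, and Flt1, Angpt1, Vegfb and Vegfc overlap between genotypes.

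Sequence before the start site is shown for the 3 genes that led to the choice of this group, Eng, Kdr and Tek, and for Flt1, the most abundant VEGF receptor. The 250 bases before each start are given 5′ to 3′ on the gene's strand, from RefSeq on build GRCm38.p6, which is mm10. Capitals mark matches, on either strand, to 6 short motifs. Eng lies at chr2:32646345-32646594 (plus strand), Kdr at chr5:75978456-75978705 (minus), Tek at chr4:94739039-94739288 (plus) and Flt1 at chr5:147726012-147726261 (minus).
Eng: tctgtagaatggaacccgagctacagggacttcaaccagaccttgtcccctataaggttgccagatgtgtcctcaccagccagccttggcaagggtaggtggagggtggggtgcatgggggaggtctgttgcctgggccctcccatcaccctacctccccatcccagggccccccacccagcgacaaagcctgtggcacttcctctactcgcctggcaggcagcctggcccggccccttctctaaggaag
Kdr: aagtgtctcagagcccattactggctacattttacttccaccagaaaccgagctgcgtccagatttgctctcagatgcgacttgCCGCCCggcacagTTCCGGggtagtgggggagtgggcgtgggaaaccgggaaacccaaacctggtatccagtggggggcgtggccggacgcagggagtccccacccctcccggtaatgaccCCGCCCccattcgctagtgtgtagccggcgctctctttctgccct
Tek: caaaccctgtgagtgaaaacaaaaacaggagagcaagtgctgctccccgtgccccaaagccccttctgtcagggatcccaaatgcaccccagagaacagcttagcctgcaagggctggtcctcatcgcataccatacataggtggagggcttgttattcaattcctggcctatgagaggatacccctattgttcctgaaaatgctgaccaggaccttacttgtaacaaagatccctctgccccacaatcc
Flt1: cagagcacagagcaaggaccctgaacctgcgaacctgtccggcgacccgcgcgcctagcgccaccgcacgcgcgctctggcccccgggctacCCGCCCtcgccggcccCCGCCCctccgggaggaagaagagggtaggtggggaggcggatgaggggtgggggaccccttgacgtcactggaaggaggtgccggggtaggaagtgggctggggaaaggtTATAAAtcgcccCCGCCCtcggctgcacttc

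The Eng and Tek windows hold none of the 6 motifs. Eng holds 4 CpG dinucleotides and Tek 2, beside a median of 6 over all windows. Of 32851 mouse windows of this length, 44.4% had as few CpG as Eng or fewer, and 29.0% as few as Tek or fewer. Kdr holds 16 CpG, 2 matches to the SP1 box GGGCGG and 1 to the ETS motif CCGGAA. Flt1 holds 23 CpG, 3 SP1 boxes and 1 TATA box (TATAAA). The SP1 box occurs in 32.7% of all windows, the ETS motif in 12.0% and the TATA box in 12.4%. The other motifs searched were the E-box CACGTG (6.02% of windows), the HIF core ACGTG (16.6%, counting those inside an E-box) and the AP-1 motif TGANTCA (6.75%), and none of the 8 genes with a window holds any of these. Beyond the printed windows, Flt4 holds 3 SP1 boxes, Vegfb 4 and Vegfc 2, and Vegfd holds a TATA box and 2 CpG. Windows follow RefSeq starts, which differ for some genes from the GENCODE positions given below. The Flt4 window, chr11:49609429-49609678, lies inside the GENCODE gene. The Vegfd window, chrX:164373272-164373521, runs past the GENCODE start at 164373378, and the last bases of the Kdr window lie in the GENCODE gene. A match is a description of these letters and not of binding.

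Endoglin was the gene of this group that rose. Eng (chromosome 2, 32646595 to 32682669, plus strand, mm10, protein coding) measured 43.0, 45.3 and 47.2 CPM in KO and 4.62, 5.64 and 3.65 CPM in WT. The lowest KO library lay far above the highest WT library, and the 3 KO libraries were within a few CPM of each other. The means were 45.2 ± 2.145 CPM in KO and 4.64 ± 1.00 CPM in WT (SD, n = 3 each), a 9.74-fold difference and a log2 fold change of 3.28 ± 0.17 (SE). Without any 1 library the log2 value stayed between 3.13 and 3.45. Behind these levels stood 2444, 2692 and 3508 fragments in KO and 291, 271 and 202 in WT before the authors' scaling. The annotation places Fpgs on the other strand, sharing 61 of the 4048 exonic bases of Eng, or 1.51%, and the labels do not say whether counting used strand.

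Of the 3 VEGF receptor genes, Kdr and Flt4 fell in KO while Flt1 overlapped between genotypes. Kdr (chromosome 5, 75932827 to 75978458, minus strand), the main signalling receptor of vessel growth, measured 0.909, 0.79 and 0.41 CPM in KO and 4.3, 4.26 and 8.19 CPM in WT. Every KO library lay under 1 CPM, and WT replicate 3 was the highest of the 6. The mean was 0.703 ± 0.261 CPM in KO and 5.59 ± 2.26 CPM in WT (SD, n = 3 each), so KO held 12.6% of the WT level, a log2 fold change of -2.99 ± 0.39 (SE). These levels rest on 52, 47 and 31 fragments in KO and 270, 205 and 453 in WT. Even in WT, Kdr was thus a low transcript of these cells.

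Flt4 (chromosome 11, 49609263 to 49652739, plus strand), the receptor of VEGF-C and VEGF-D, measured 11.6, 12.4 and 7.75 CPM in KO and 25.8, 28.8 and 27.95 CPM in WT. The WT libraries lay close together and all above the KO libraries, of which replicate 3 was lowest. Means of 10.6 ± 2.50 CPM in KO and 27.5 ± 1.53 CPM in WT (SD, n = 3 each) put KO at 38.5% of WT, with a log2 fold change of -1.38 ± 0.18 (SE).

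Flt1 (chromosome 5, 147561604 to 147726011, minus strand), the receptor that can also act as a decoy, measured 277, 275 and 147 CPM in KO and 257, 260 and 141 CPM in WT. Replicate 3 of each genotype stood well below the other libraries, by about the same factor: 0.532 of the mean of replicates 1 and 2 in KO and 0.546 in WT. Genotypes overlapped, with means of 233 ± 74.7 CPM in KO and 220 ± 67.8 CPM in WT (SD, n = 3 each). The log2 fold change was 0.09 with a 95% interval of -0.61 to 0.78, which leaves room for differences in either direction.

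Counted per transcript length, the make-up of the receptor family shifted with these changes. Flt1 took 95.35%, 95.2% and 94.45% of the summed FPKM of the 3 receptors in KO and 89.0%, 88.5% and 78.8% in WT. Flt4 took 4.29%, 4.535% and 5.25% in KO and 9.33%, 9.98% and 16.2% in WT. Kdr took 0.355%, 0.303% and 0.299% in KO and 1.66%, 1.56% and 4.995% in WT. Flt1 was the main VEGF receptor transcript of both genotypes, and Kdr the least abundant, in every library.

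Tek and Angpt2, the TIE2 receptor and a context-dependent blocker of it, were lower in KO, and Angpt1, its activating ligand, overlapped between genotypes. Tek (chromosome 4, 94739289 to 94874976, plus strand) measured 0.446, 0.471 and 0.102 CPM in KO and 2.57, 2.02 and 1.01 CPM in WT. All KO libraries lay below all WT libraries, and replicate 3 was the lowest of each genotype. The mean was 0.34 ± 0.206 CPM in KO and 1.87 ± 0.79 CPM in WT (SD, n = 3 each), so KO held 18.2% of the WT level, a log2 fold change of -2.45 ± 0.55 (SE). Few fragments stood behind it, 25, 28 and 7 in KO and 162, 97 and 56 in WT. The 7 fragments of KO replicate 3 have a 95% Poisson interval of 2.81 to 14.4, which covers counting error only. Tek no longer passed the threshold without KO replicate 1 or 2 or WT replicate 1 or 2, where its log2 value lay between -2.76 and -2.16.

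Angpt2 (chromosome 8, 18690263 to 18741562, minus strand, inside Mcph1 on the other strand with no shared exonic base) measured 4.8, 5.15 and 2.12 CPM in KO and 33.3, 28.2 and 9.24 CPM in WT. Replicate 3 was again the lowest library of each genotype, and WT replicate 3 still lay above all KO libraries. Means of 4.02 ± 1.66 CPM in KO and 23.6 ± 12.7 CPM in WT (SD, n = 3 each) put KO at 17.1% of WT, a log2 fold change of -2.55 ± 0.51 (SE). Without KO replicate 1, KO replicate 3, WT replicate 1 or WT replicate 2 the threshold was missed, at log2 values between -2.70 and -2.22.

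Angpt1 (chromosome 15, 42424723 to 42676977, minus strand) measured 2.01, 1.95 and 4.23 CPM in KO and 2.57, 2.84 and 0.785 CPM in WT. Replicate 3 moved apart here, KO replicate 3 being the highest and WT replicate 3 the lowest of the 6. With means of 2.73 ± 1.30 CPM in KO and 2.06 ± 1.12 CPM in WT (SD, n = 3 each), the log2 fold change was 0.40 with a 95% interval of -0.75 to 1.56. Without replicate 3 of both genotypes it was -0.45, so its sign rests on those libraries. Gm17473 on the other strand shares 737 of the 5205 exonic bases of Angpt1, or 14.2%, and counting by strand is not stated.

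Among the angiopoietins, the share of Angpt1 was higher in KO. Of the summed FPKM of Angpt1 and Angpt2, Angpt1 took 25.6%, 23.8% and 46.1% in KO and 5.345%, 7.64% and 6.49% in WT. By FPKM, Angpt2 was the larger of the pair in all 6 libraries, with 53.9% to 76.2% in KO and 92.4% to 94.7% in WT. In KO replicate 3 this order depends on the transcript length assigned to Angpt2. Its fragments per FPKM, which follow that length, were 112 there against 219 in KO replicates 1 and 2. In CPM, which do not use length, Angpt2 measured 2.12 and Angpt1 4.23 in KO replicate 3.

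Of the 3 VEGF ligand genes in this group, Vegfd fell and Vegfb and Vegfc overlapped between genotypes. Vegfa is not among the 10 genes, and Pgf is given with the coreceptors below. Vegfd (chromosome X, 164373378 to 164402650, plus strand), a ligand of Flt4 made by fibroblasts, measured 51.8, 53.5 and 69.4 CPM in KO and 138, 142 and 99.9 CPM in WT. The replicate 3 libraries lay nearest to each other, and the genotypes still did not overlap. The mean was 58.3 ± 9.72 CPM in KO and 127 ± 23.4 CPM in WT (SD, n = 3 each), so KO held 45.9% of the WT level, a log2 fold change of -1.12 ± 0.17 (SE). Xist, which is transcribed from an inactive X chromosome, measured 1046, 798 and 890 CPM in KO and 2.17, 2.02 and 0.213 CPM in WT, and the Y-linked Ddx3y measured 31.3, 23.97 and 35.9 CPM in KO and 109, 96.6 and 81.8 CPM in WT. Every KO library thus held both transcripts, with mean Ddx3y at 31.7% of its WT mean, and the make-up of the cultures by sex was not tested. Neither transcript overlapped between genotypes, so these sex-linked differences run along with genotype in every comparison here and cannot be told apart from it. Their part in the difference of the X-linked Vegfd, of the other genes of this group and of the pathway lists was not tested.

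Vegfb (chromosome 19, 6982473 to 6987651, minus strand), a ligand of Flt1, measured 48.1, 51.6 and 38.9 CPM in KO and 44.4, 53.5 and 35.9 CPM in WT. Replicate 3 was lowest in each genotype, and the ranges lay on top of each other. The means were 46.2 ± 6.52 CPM in KO and 44.6 ± 8.80 CPM in WT (SD, n = 3 each), with a log2 fold change of 0.05 and a 95% interval of -0.34 to 0.44.

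Vegfc (chromosome 8, 54077606 to 54187096, plus strand), the main ligand of lymphatic growth, measured 29.3, 30.7 and 30.1 CPM in KO and 25.3, 26.5 and 42.5 CPM in WT. The KO libraries lay between WT replicates 1 and 2 below and WT replicate 3 above. Means of 30 ± 0.69 CPM in KO and 31.4 ± 9.61 CPM in WT (SD, n = 3 each) gave a log2 fold change of -0.07 with a 95% interval of -0.52 to 0.39. Of the summed FPKM of these 3 ligands only, Vegfd thus took a smaller share in KO, at 31.3%, 30.1% and 41.9%, against 56.4%, 53.8% and 48.3% in WT. Vegfb took 52.65%, 52.4% and 42.6% in KO and 32.95%, 36.7% and 32.5% in WT.

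Leaving out replicate 3 of both genotypes kept the sign of 8 of the 10 log2 fold changes. Eng stood at 3.10, Flt4 at -1.18, Tek at -2.32, Angpt2 at -2.63 and Vegfd at -1.41 without those libraries. Kdr stood at -2.33, the largest move among the 6 genes that passed, beside -2.72 without KO replicate 3 alone and -2.61 without WT replicate 3 alone. Flt1 stood at 0.09 and Vegfb at 0.03, while Angpt1 and Vegfc changed sign, to -0.45 and 0.21.

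**Figure D3:**
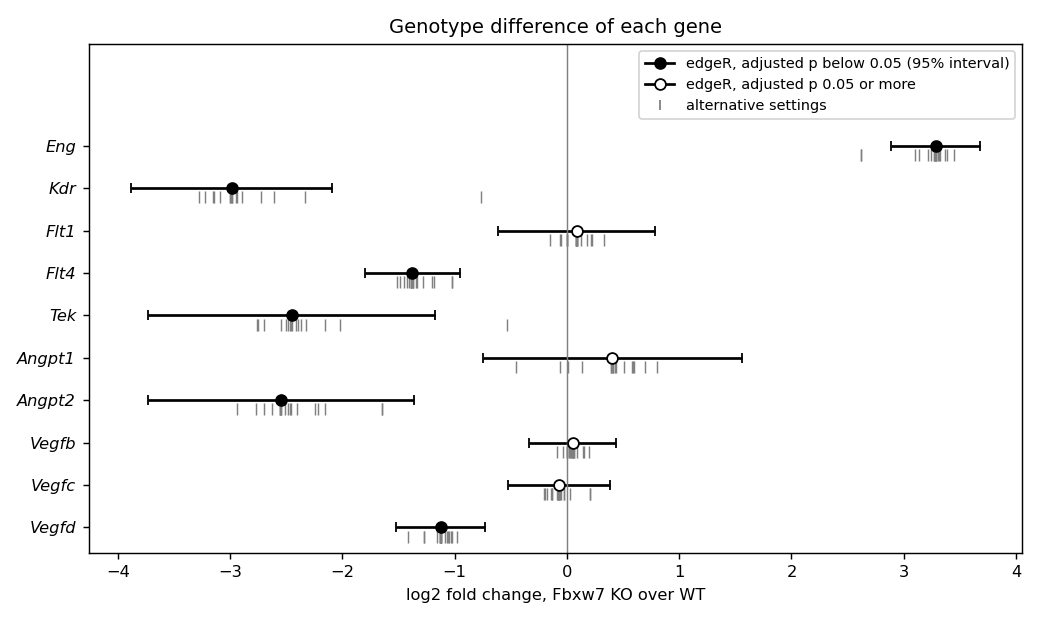
Log2 fold change of each gene, Fbxw7 KO over WT, with its 95% interval (filled, adjusted p below 0.05; open, 0.05 or more) and, as grey ticks, its value under each alternative processing. Eng lies to the right of 0 and Kdr, Flt4, Tek, Angpt2 and Vegfd to the left of 0 under every alternative that gave a value, while the ticks of Flt1, Angpt1, Vegfb and Vegfc lie on both sides.

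Per transcript length the order of the 10 genes differed between genotypes. In KO the mean FPKM, high to low, was Vegfb at 41.6, Flt1 at 32.7, Vegfd at 28.9, Vegfc at 13.8, Eng at 13.6, Flt4 at 1.58, Angpt2 at 1.26, Angpt1 at 0.609, Kdr at 0.111 and Tek at 0.071. Vegfb and Flt1, Flt1 and Vegfd, Vegfc and Eng, Flt4 and Angpt2, and Kdr and Tek overlapped in their KO libraries, and the other neighbours did not. In WT the order was Vegfd at 64.8, Vegfb at 41.8, Flt1 at 32.4, Vegfc at 15.6, Angpt2 at 6.87, Flt4 at 4.20, Eng at 1.39, Kdr at 0.904, Tek at 0.558 and Angpt1 at 0.468. Vegfb and Flt1, Angpt2 and Flt4, Eng and Kdr, Kdr and Tek, and Tek and Angpt1 overlapped in their WT libraries. Eng therefore stood beside the ligand Vegfc in KO and beside the low receptor Kdr in WT.

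**Figure D4:**
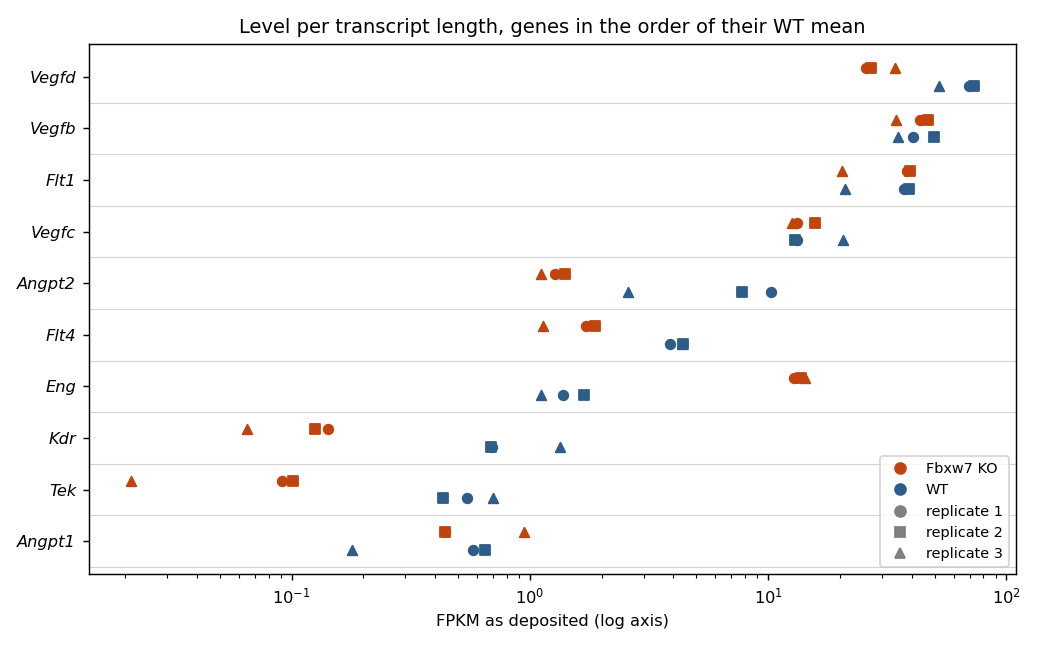
FPKM of each gene in every library on a log axis, genes in the order of their WT mean, Fbxw7 KO above WT in each row and symbols for replicates 1 to 3. Eng libraries of KO lie at 12.8 to 14.3 FPKM, among the ligands, and those of WT at 1.12 to 1.68 FPKM.

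FPKM and counts ranked Tek differently in 1 library. Tek had its lowest WT count in WT replicate 3, but its highest WT FPKM there, 0.542, 0.431 and 0.7 FPKM in WT replicates 1, 2 and 3. The deposited fragments per FPKM, which follow the transcript length assigned to the gene, were 282, 278 and 261 in KO and 283, 282 and 88.4 in WT. Angpt2 departed in KO replicate 3, with 219, 219 and 112 in KO and 193, 218 and 218 in WT. FPKM levels of these genes in those libraries therefore reflect another assigned length as well as another count, while the CPM above do not use length. The overlap of Tek with Kdr in WT rests on WT replicate 3, as Tek in WT replicates 1 and 2 lay below the lowest WT Kdr, 0.687 FPKM. The place of Tek above Angpt1 in the WT order rests on it too. In WT replicates 1 and 2 Angpt1 stood above Tek, at 0.578 and 0.645 FPKM. The order of Angpt2 over Angpt1 in KO replicate 3 likewise rests on the length assigned there.

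Around these 10 genes, 8 lists of pathway genes were counted, holding 77 entries of which 68 were tested. In edgeR 24 of the 68, or 35.3%, passed an adjusted p of 0.05, 10 of them higher in KO and 14 lower. Of all genes 16.1% passed, 8.03% higher and 8.08% lower. The lists were written with earlier results of these data known, so nothing is read from these shares. For the lists in the order below, the shares called were 62.5%, 16.7%, 20%, 25%, 75%, 22.2%, 33.3% and 50%. The median log2 fold change was -0.07 over the 68 genes and 0.01 over all genes tested. Without KO replicate 1 the count was 13, and without WT replicate 1 or WT replicate 2 it was 15. With replicate 3 of both genotypes left out 49 were called, and with replicates 1 and 2 of a genotype summed 6 were called. Some lists below had 0 genes in a direction. That count was also 0 at an unadjusted p under 0.05 in edgeR and in DESeq2's Wald test. It was not 0 without replicate 3 of both genotypes, which is given for each list. For the endoglin partners it was also not 0 without WT replicate 3 alone.

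Coreceptors and semaphorins that share them moved in both directions: 2 of 8 rose and 3 fell, with a median log2 fold change of -0.78. Nrp2, the neuropilin that binds VEGF-C and works with Flt4, measured 626, 647 and 680 CPM in KO and 349, 379 and 302 CPM in WT (log2 fold change 0.92 ± 0.11, adjusted p 0.00233). Plxnd1, a semaphorin receptor of vessels, measured 38.9, 42.6 and 30.7 CPM in KO and 10.4, 13.0 and 14.4 CPM in WT (1.57 ± 0.17, adjusted p 0.00129). Neither overlapped between genotypes. Nrp1, the neuropilin that works with Kdr and a gene named here after its values were seen, averaged 51.5 ± 6.57 CPM in KO and 82.0 ± 9.20 CPM in WT (SD, n = 3 each). Its log2 fold change was -0.67 ± 0.13 (SE) with an adjusted p of 0.0128, and it was not called without KO replicate 1, WT replicate 1 or WT replicate 2 (adjusted p 0.0504 to 0.0533). The secreted semaphorins Sema3c, at -1.16 ± 0.21, and Sema3f, at -1.15 ± 0.18, fell with adjusted p of 0.0098 and 0.00573. Pgf, a further ligand of Flt1, stayed near 1 CPM or below and had an adjusted p of 0.195. Without replicate 3 of both genotypes 3 genes of the list were higher and 4 lower.

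Of 6 tested genes that process VEGF-C and VEGF-D, 1 rose and 0 fell at an adjusted p of 0.05. The share of 16.7% lay near the 16.1% of all genes, and the median was 0.06. The gene that rose was Ccbe1, which helps the protease ADAMTS3 mature VEGF-C. It measured 63.2, 60.8 and 75.9 CPM in KO and 3.18, 3.27 and 7.24 CPM in WT, a log2 fold change of 3.87 ± 0.33 (SE) with an adjusted p of 0.000578. Adamts3 itself overlapped between genotypes, at 2.85, 3.90 and 1.25 CPM in KO and 2.37, 2.92 and 2.55 CPM in WT. Without replicate 3 of both genotypes the list had 3 genes higher and 1 lower.

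Downstream of the VEGF receptors, 2 of 10 tested signalling genes fell and 0 rose at an adjusted p of 0.05. The share of 20% lay near the 16.1% of all genes, and the median was -0.17. The 2 that fell were the adaptors Shb (-0.56 ± 0.13, adjusted p 0.0231) and Gab1 (-0.44 ± 0.12, adjusted p 0.0457). The count was 0 without KO replicate 1, WT replicate 1 or WT replicate 2, and 1 without KO replicate 2 or KO replicate 3, with upper-quartile factors, with library size only or on log2(FPKM + 1). It was 4, all lower, in DESeq2's Wald test, and 5, with 1 higher and 4 lower, without replicate 3 of both genotypes.

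Among partners of the angiopoietins and TIE receptors, 1 of 8 tested genes rose and 1 fell, with a median of 0.02. Together 25% of this list was called, beside 16.1% of all genes. Svep1, a large matrix protein that is a ligand of TIE1, measured 169, 164 and 162 CPM in KO and 433, 478 and 421 CPM in WT, a log2 fold change of -1.43 ± 0.09 (SE) with an adjusted p of 0.000167. Ptprb, the phosphatase that restrains TIE2, measured 2.51 ± 0.572 CPM in KO and 1.23 ± 0.183 CPM in WT (SD, n = 3 each), a log2 fold change of 1.02 ± 0.24 with an edgeR adjusted p of 0.0272. The call of Ptprb held without KO replicate 3 and was lost without any other single library, at adjusted p of 0.0522 to 0.113. Without replicate 3 of both genotypes 2 genes of the list were higher and 3 lower. Angiopoietin-like genes, relatives that do not bind TIE2, rose in 3 of 4 tested cases with a median of 1.21. They were Angptl6 (1.74 ± 0.22, adjusted p 0.00252), the lipase inhibitor Angptl4 (1.80 ± 0.29, adjusted p 0.00653) and Angptl2 (0.68 ± 0.15, adjusted p 0.021), the last of which was not called without WT replicate 1, at an adjusted p of 0.0764. Without replicate 3 of both genotypes 3 were higher and 1 was lower.

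Partners of endoglin at the membrane changed in 2 of 9 tested cases, both higher in KO, with a median of 0.21. The share called was 22.2%, beside 16.1% of all genes. Acvrl1 (ALK1), the receptor that signals with endoglin in endothelium, measured 28.5, 29.8 and 20.2 CPM in KO and 16.3, 17.1 and 14.7 CPM in WT (0.71 ± 0.16, adjusted p 0.0248). The genotypes did not overlap, but the call held only without KO replicate 3 and was lost without each other library, at adjusted p of 0.0505 to 0.101. Tgfb3, a TGF-beta ligand, averaged 132 ± 5.58 CPM in KO and 89.9 ± 6.16 CPM in WT (SD, n = 3 each), with a log2 fold change of 0.56 ± 0.09 and an edgeR adjusted p of 0.00644. The high-affinity endoglin ligands Gdf2 (BMP9) and Bmp10 were near 0, at most 0.0673 CPM in any library. Of this list 4 genes were higher and 2 lower without replicate 3 of both genotypes, and 1 was called, higher, on log2(FPKM + 1). Without WT replicate 3 alone 1 was higher and 1 lower.

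Effectors and targets of the endoglin pathway fell in 5 of 15 tested cases and rose in 0 at an adjusted p of 0.05, with a median of -0.36. Id2, a transcriptional inhibitor of the ID family induced by BMP signalling, measured 16.96, 16.5 and 9.98 CPM in KO and 54.3, 48.5 and 43.0 CPM in WT, a log2 fold change of -1.75 ± 0.21 (SE) with an adjusted p of 0.00197. Id1 measured 39.9, 40.8 and 24.3 CPM in KO and 65.8, 64.6 and 115 CPM in WT (-1.22 ± 0.28, adjusted p 0.0235). Id3 had a log2 fold change of -0.68 and an adjusted p of 0.0505. Smad9 (-0.71, adjusted p 0.0376), Smad3 (-0.37, adjusted p 0.0387) and the focal contact protein Zyx (-0.66, adjusted p 0.049), which was named after its values were seen, made up the rest. Id1 was not called without any 1 of the KO libraries (adjusted p 0.0637 to 0.0668), Smad3 without any library but WT replicate 3 (0.0502 to 0.135), Smad9 without any of the 6 (0.0551 to 0.0995), and Zyx without any KO library or WT replicate 2 (0.0914 to 0.126). The count of 5 was 1 without KO replicate 1 or KO replicate 2, 2 without KO replicate 3 or WT replicate 2, and 3 without WT replicate 1, and Id2 kept its call in every such fit. It was 3 with upper-quartile factors, 2 with library size only and 1 on log2(FPKM + 1). Without replicate 3 of both genotypes 11 genes were called, 4 higher and 7 lower, so that the count of 0 higher did not hold there.

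Of 8 tested genes listed as angiogenesis inhibitors, 4 changed, 1 higher and 3 lower in KO, with a median of -0.56. Col18a1, the source of endostatin, measured 531, 532 and 313 CPM in KO and 174, 199 and 188 CPM in WT (1.29 ± 0.20, adjusted p 0.00572). Timp3, a protease inhibitor that also blocks VEGF binding to Kdr, fell by 0.89 on the log2 scale (adjusted p 0.00425). Vash2 (-0.53, adjusted p 0.0109), of the vasohibin family, and Serpinf1 (-0.60, adjusted p 0.0192), which encodes PEDF, fell as well. Vash2 was listed with its family and is not an established inhibitor, so the 3 lower genes are not all inhibitors. Its relative Vash1 had a log2 fold change of 0.53 and an edgeR adjusted p of 0.242. Serpinf1 was not called without KO replicate 1, WT replicate 1 or WT replicate 2 (adjusted p 0.0597 to 0.0726), and Vash2 without KO replicate 1 (0.0657), where the count was 2. It was 7, with 1 higher and 6 lower, both in DESeq2's Wald test and without replicate 3 of both genotypes.

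**Figure D5:**
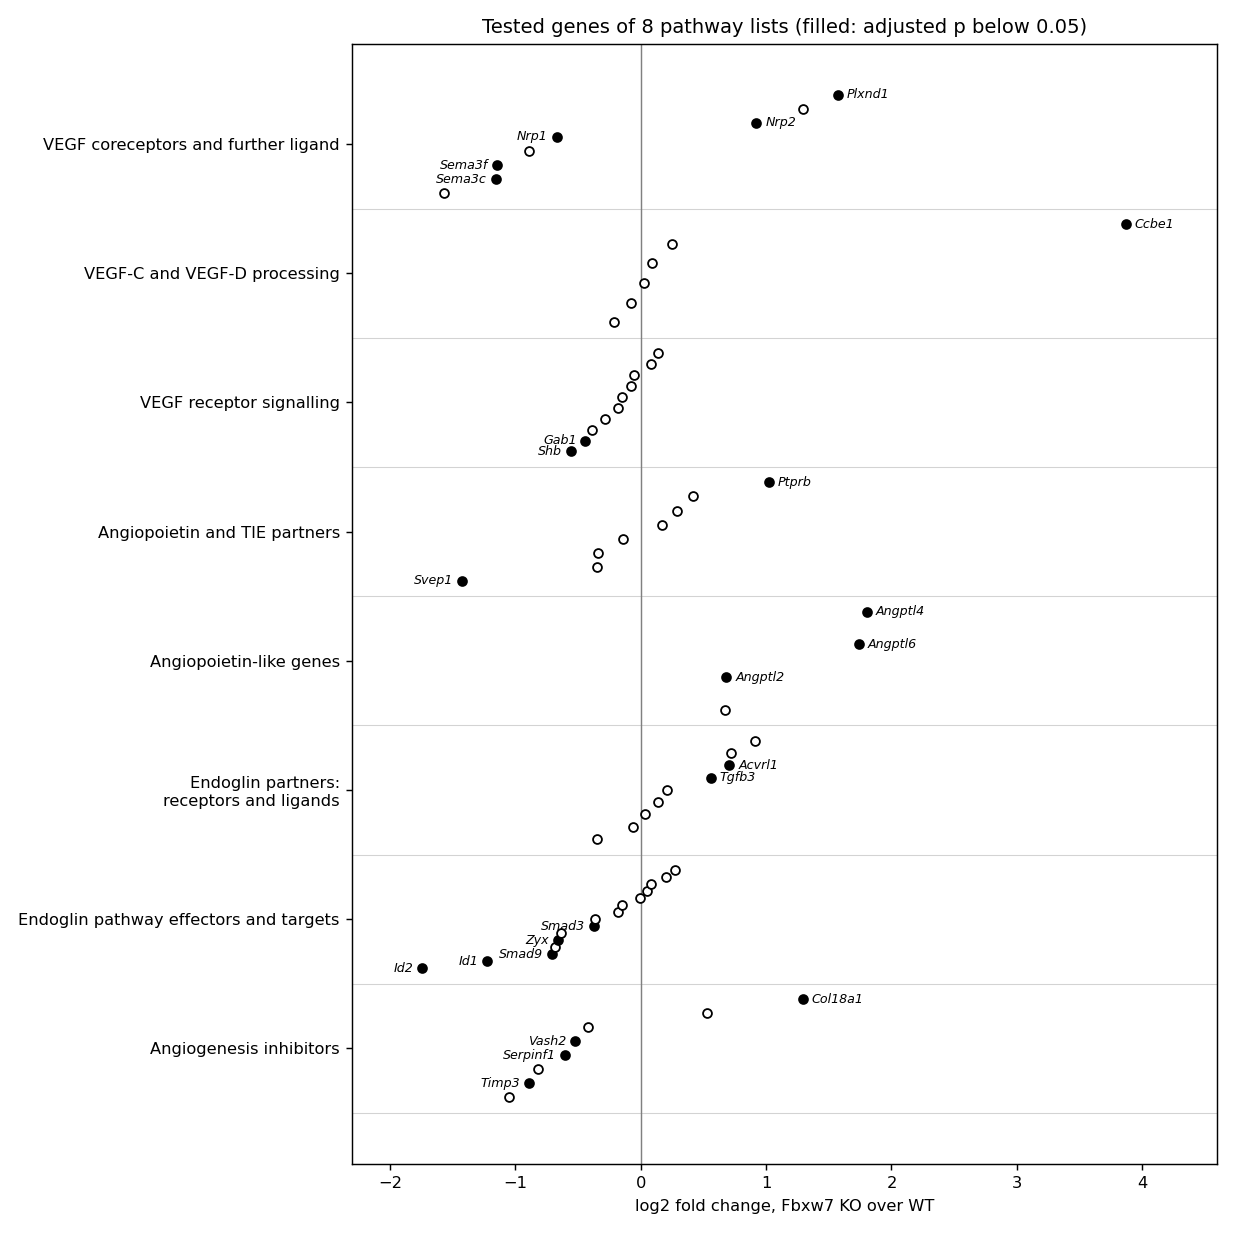
Log2 fold change, Fbxw7 KO over WT, of each tested gene in the 8 pathway lists, with filled and named points for an adjusted p below 0.05. Ccbe1 lies far to the right at 3.87, Id2 is the lowest named point at -1.75, and the called effectors of endoglin all lie left of 0.

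Genes with the most similar pattern over the 6 libraries were looked up for Eng, Kdr and Tek among 11877 single-gene coding loci, by the root mean square difference of centred log2(CPM + 0.5). For Eng they were Hoxa9 (difference 0.0938), Slitrk2 (0.138) and Slc16a3 (0.143). Hoxa9, a homeobox factor, averaged 58.2 ± 1.01 CPM in KO and 5.57 ± 0.744 CPM in WT (SD, n = 3 each). For Kdr they were Serinc2 (0.166), H2-Q6 (0.187), which has near-identical relatives and an uncertain count, and Wscd2 (0.201). Serinc2 averaged 3.24 ± 1.06 CPM in KO and 18.4 ± 4.25 CPM in WT. For Tek they were the alcohol dehydrogenase Adh1 (0.11), Lrrn4cl (0.136) and Nap1l3 (0.144), with Adh1 at 9.59 ± 1.53 CPM in KO and 28.4 ± 9.33 CPM in WT. The constant of 0.5 CPM is larger than the KO mean of Tek, so it shrinks the pattern of low genes and bears on which genes match. Tek was 5.50-fold lower in KO, against 2.96-fold for Adh1, 2.66-fold for Lrrn4cl and 3.67-fold for Nap1l3, and Slitrk2 was 36.4-fold higher, against 9.74-fold for Eng.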

How the data were processed

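RNA-seq of 3 Fbxw7 KO and 3 WT fibroblast libraries was analysed from tables. Per the labels' protocols, Trizol and an RNeasy column served for extraction, and libraries followed the Illumina TruSeq protocol. The submitters' processing notes name TopHat2 2.1.1, SAMtools 1.5, deepTools, Cufflinks 2.2.1 and build mm10, while strand setting and annotation are not given in the sources used here. Deposited by the authors were estimated counts (expected fragments per locus, with a status per library) and FPKM, in a Cufflinks-type layout per the file headers. In each library 88.9% to 89.5% of estimated counts up to 1000 were whole multiples of 1 step (tolerance 0.05), so the authors had scaled them, and dividing by the step gave 51152378 to 70625753 fragments. Left out were 1317 unnamed loci (at most 3.13e-05% of a library) and 9 named loci with status HIDATA, 55 named FAIL loci were kept, and 36 per-sample columns were not used.

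After rounding of the estimated counts, the robust quasi-likelihood F test of edgeR 4.0.16 (R 4.3.3) was run two-sided with genotype as the term, after filterByExpr and TMM scaling, with Benjamini-Hochberg adjustment over 16787 genes and a threshold of 0.05. The SE is the log2 fold change over the square root of F. Reads had no molecular identifiers, so Poisson intervals cover counting error only. Positions came from GENCODE M21. Promoter windows were matched for 8 of the 10 genes, and after a first look the 50 bases past the RefSeq start were dropped. Protein sequences were not analysed here.

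The members and lists were chosen with earlier results of these data known. From each pathway list up to 4 called genes with the smallest adjusted p were named, and for Eng, Kdr and Tek the 3 nearest patterns. Marker lists were endothelial, lymphatic, mural, blood and macrophage, epithelial and fibroblast. Alternatives were other scalings, filters and tests (DESeq2 1.42.0, limma 3.58.1 on log2 FPKM), a replicate block, libraries left out or summed, and unscaled fragments. Figures used Python 3.11.15 with matplotlib 3.10.9.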

Additional observations from a re-analysis of the deposited data

How the results depend on the processing

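Eng, Kdr and Flt4 kept direction and call under every alternative that tested them, although on log2(FPKM + 1) without a filter, a scale that compresses low genes, Kdr shrank to -0.76 and Tek to -0.54. With the FPKM filter Kdr, Tek and Angpt1 were not tested, and with a filter of at least 1 CPM in 3 libraries Tek was not tested. With library size alone the median gene lay at a log2 fold change of 0.10 and the share of calls that were higher in KO was 65.7%, against 49.8% with TMM. Of the 10 genes 6 were called, 4 to 6 without 1 library each, 3 with replicates 1 and 2 summed and 3 of the 7 tested on log2(FPKM + 1). Tek missed the threshold without 4 of the 6 libraries (adjusted p 0.0581 to 0.081) and with replicates summed (0.166), Angpt2 without 4 of the 6 (0.0506 to 0.0579), with no count filter, with replicates summed and on log2(FPKM + 1) with or without a filter (up to 0.157), and Vegfd with replicates summed (0.0851). Signs turned only in genes that were not called, and the cause was not tested: Flt1 ranged from -0.15 to 0.33 without 1 library each, being -0.0588, -0.0515 and -0.153 without KO replicate 1, KO replicate 2 and WT replicate 3. Angpt1 was -0.0614 without KO replicate 3 (range to 0.70) and -0.45 without replicate 3 of both genotypes. Vegfb was -0.0373 without KO replicate 2 and -0.0852 without WT replicate 3 (range to 0.20), and -0.0035 in all 3 FPKM fits. Vegfc was 0.0283 with library size only, and 0.21 both without WT replicate 3 (range from -0.20) and without replicate 3 of both genotypes. Of all genes 2705 were called, 1169 to 3282 without 1 library each, 6993 without replicate 3 of both genotypes, 478 with replicates summed, 1562 on log2(FPKM + 1), 1615 on log2(FPKM + 0.1), 1182 without the FPKM filter and 3639 by DESeq2's Wald test. Of the pathway genes 24 were called, 13 to 23 without 1 library each, 49 without replicate 3 of both genotypes, 6 with replicates summed and 13 on log2(FPKM + 1) without a filter. The labels do not say whether same-numbered libraries were handled together. Deviations from the group means correlated at 0.0237, 0.098 and 0.0788 between same-numbered libraries, and at -0.123 to 0.076 between the other pairs. With 3 libraries per genotype these values cannot decide whether the libraries are paired. With the replicate number as a block 2356 genes, 6 of the 10 genes and 22 pathway genes were called. Angptl2, Id1, Smad3, Smad9 and Zyx were not called there, which left 1 called effector of endoglin in place of 5. Depth limits Tek most, with 7 to 28 fragments per KO library.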

Other observations

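Markers of other cell types that the cultures could hold were also measured. Mural cell markers, of the cells that wrap vessels, summed to 669, 674 and 552 CPM in KO and 620, 681 and 529 CPM in WT, mostly from Pdgfrb, which fibroblasts also express. Rgs5, a pericyte gene, was the 1 called gene of its 5 tested, at 1.2, 0.942 and 0.648 CPM in KO and 2.1, 1.89 and 4.46 CPM in WT, a log2 fold change of -1.60 with an edgeR adjusted p of 0.0319 that was missed without any KO library or WT replicate 1 (0.057 to 0.0988). Blood and macrophage markers summed to 19.9, 19.5 and 18.4 CPM in KO and 25.6, 23.3 and 23.4 CPM in WT, with Adgre1 and Tyrobp listed at 0 in every library, and Lyz2 and Cd68 were lower in KO (adjusted p 0.0171 and 0.0299 in edgeR). Lyz2 was not called without KO replicate 1, WT replicate 1 or WT replicate 2 (0.054 to 0.076), nor Cd68 without any 1 library (0.0511 to 0.0983). Cd14 lay the other way without overlap, at 6.38, 5.85 and 7.58 CPM in KO and 4.42, 4.75 and 4.59 CPM in WT, with an adjusted p of 0.056 in edgeR and 0.0174 in DESeq2's Wald test. Epithelial markers summed to 0.137, 0.101 and 0.154 CPM in KO and 0.454, 0.282 and 0.229 CPM in WT. Of the fibroblast markers, Lum and Dcn were higher and Vim lower in KO (adjusted p 0.00612, 0.0252 and 0.00972 in edgeR), but Dcn was not called without any KO library or WT replicate 2 (0.0702 to 0.0792), nor Vim without KO replicate 1 (0.058). Their part in the differences of the VEGF receptor, angiopoietin and endoglin genes was not tested.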
